A study of Mus musculus with 18 samples.

Results

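The GDNF-RET genes of the ureteric tip were followed across the series as the 9 rows of its expression table named Gdnf, Ret, Gfra1, Etv4, Etv5, Spry1, Spry2, Sox8 and Sox9, of 78317 genes in all. Each name matched 1 row, and all 9 passed the filter on low counts among the 16544 genes tested. The samples were explants of wild-type CD1 mouse kidney, taken at embryonic day 14, exposed to AAV2 for 4 hours and then grown for 72 hours within a collagen and Matrigel hydrogel. Every vector held an mCherry reporter, driven by the CAG promoter, and 2 shRNA cassettes in a mir30 backbone: both against Mylk (Mylk-shRNA), 1 each against Rock1 and Rock2 (Rock1/2-shRNA), or with shuffled Rock1 and Rock2 targets (scramble-shRNA, the control). No group was left without virus. Explants of 1 litter and vector were pooled, digested and sorted, and the brightest 25% of cells formed the positive fraction and the dimmest 50% the negative fraction, so a negative cell had met the same virus and medium. Vector and fraction together made 6 groups with 1 library per litter from 3 litters, or 18 libraries from 9 pooled cultures. The CAG promoter is active in most cell types, and neither fraction was selected for a kidney cell type.

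GDNF is a secreted ligand made by the mesenchyme around the ureteric bud, and RET is the receptor tyrosine kinase of the bud's tips. GDNF binds RET through GFRA1, a co-receptor held at the membrane by a lipid anchor, and the signal drives the outgrowth and branching of the bud. Etv4 and Etv5 are ETS transcription factor genes that RET signaling induces in the tip, Sox8 and Sox9 encode SOX factors that act with it there, and Spry1 and Spry2 encode Sprouty proteins that dampen receptor tyrosine kinase signaling. Some are known outside the tip as well, such as Gfra1 in the mesenchyme and Sox9 in the early nephron.

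The libraries held 3121616 to 12170814 counts, with a median of 7581371. Litter 3 had the highest share of mitochondrially encoded counts in 5 of the 6 groups, all but the scramble-shRNA positive one. The share ran from 3.95 to 9.16% in litter 3 and from 2.01 to 4.02% in litters 1 and 2, so results that rest on litter 3 are also given without it. The targeted transcripts stood at 87.9% of scramble-shRNA for Mylk (95% interval 71.3 to 108%), 94.1% for Rock1 (76.6 to 115%) and 88.7% for Rock2 (70.8 to 111%) in the positive fraction, and every interval included 100%.

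Promoter sequences are shown because 8 of the 9 genes differed between fractions in one direction and Gdnf in the other. The RefSeq table of promoters matched 6 of the 9 genes with 8 start sites, and Ret, Etv4 and Sox9 had no entry. For Gdnf, Spry2 and Etv5 the 250 bases before a start site that overlaps no annotated exon are printed, 5′ to 3′ on the gene's strand in build GRCm38.p6. Capitals mark TATAAA, a motif added after the sequences were seen.
Gdnf (chr15:7809798-7810047, plus strand): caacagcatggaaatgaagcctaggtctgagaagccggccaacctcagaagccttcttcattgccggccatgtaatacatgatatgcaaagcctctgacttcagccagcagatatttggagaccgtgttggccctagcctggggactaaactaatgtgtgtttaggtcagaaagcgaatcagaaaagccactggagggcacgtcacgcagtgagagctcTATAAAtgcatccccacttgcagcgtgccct
Spry2 (chr14:105896820-105897069, minus strand): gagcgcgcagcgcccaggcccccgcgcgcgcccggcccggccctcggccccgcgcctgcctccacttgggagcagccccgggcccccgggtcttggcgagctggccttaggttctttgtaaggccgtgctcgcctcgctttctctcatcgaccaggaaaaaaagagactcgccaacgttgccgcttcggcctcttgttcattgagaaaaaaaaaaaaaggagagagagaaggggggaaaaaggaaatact
Etv5 (chr16:22438369-22438618, minus strand): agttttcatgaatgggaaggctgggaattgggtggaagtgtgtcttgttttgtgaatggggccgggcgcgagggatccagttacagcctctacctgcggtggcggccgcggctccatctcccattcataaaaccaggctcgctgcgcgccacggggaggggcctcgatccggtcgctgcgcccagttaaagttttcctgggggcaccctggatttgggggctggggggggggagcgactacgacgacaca
TATAAA lies 31 bases before the start site shown for Gdnf, and no other of the 8 windows holds it on either strand, while 12.4% of all 32851 promoter windows do. CCGGAAG, a sequence that ETS factors bind, was in none of the 8 windows and in 6.91% of all. AACAAT, a sequence that SOX factors bind, was in none of the 8 and in 9.42% of all. Only these exact letters were searched, on either strand, so shorter or variant sites of these factors were not counted. The printed windows are rich in G and C for Spry2 (62.4%) and Etv5 (62.0%) and less so for Gdnf (50.8%). Gfra1, a gene lower in the positive fraction, had 52.4% in a window that partly overlaps exons, so Gdnf does not stand apart. The other start site of Gdnf, not printed, overlaps no annotated exon either. Its window had 46.8% and no TATAAA.

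The first comparison asked whether the genes differ between the mCherry-positive and the mCherry-negative cells of the same cultures. Averaged over the 3 vectors, 8 of the 9 genes were lower in the positive fraction and Gdnf was higher. Of all genes tested, 16% were lower and 17.6% higher at the same threshold (adjusted p under 0.05), 33.6% in all. The receptor Ret and the SOX gene Sox8 had the lowest values, Sox9, Gfra1 and Etv4 were intermediate, and Etv5, Spry1 and Spry2 differed least. The median log2 fold change of the 9 genes was -0.61, against -0.03 over all genes tested. In bulk libraries such as these, fewer cells of a type and less RNA per cell cannot be told apart.

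**Figure D1:**
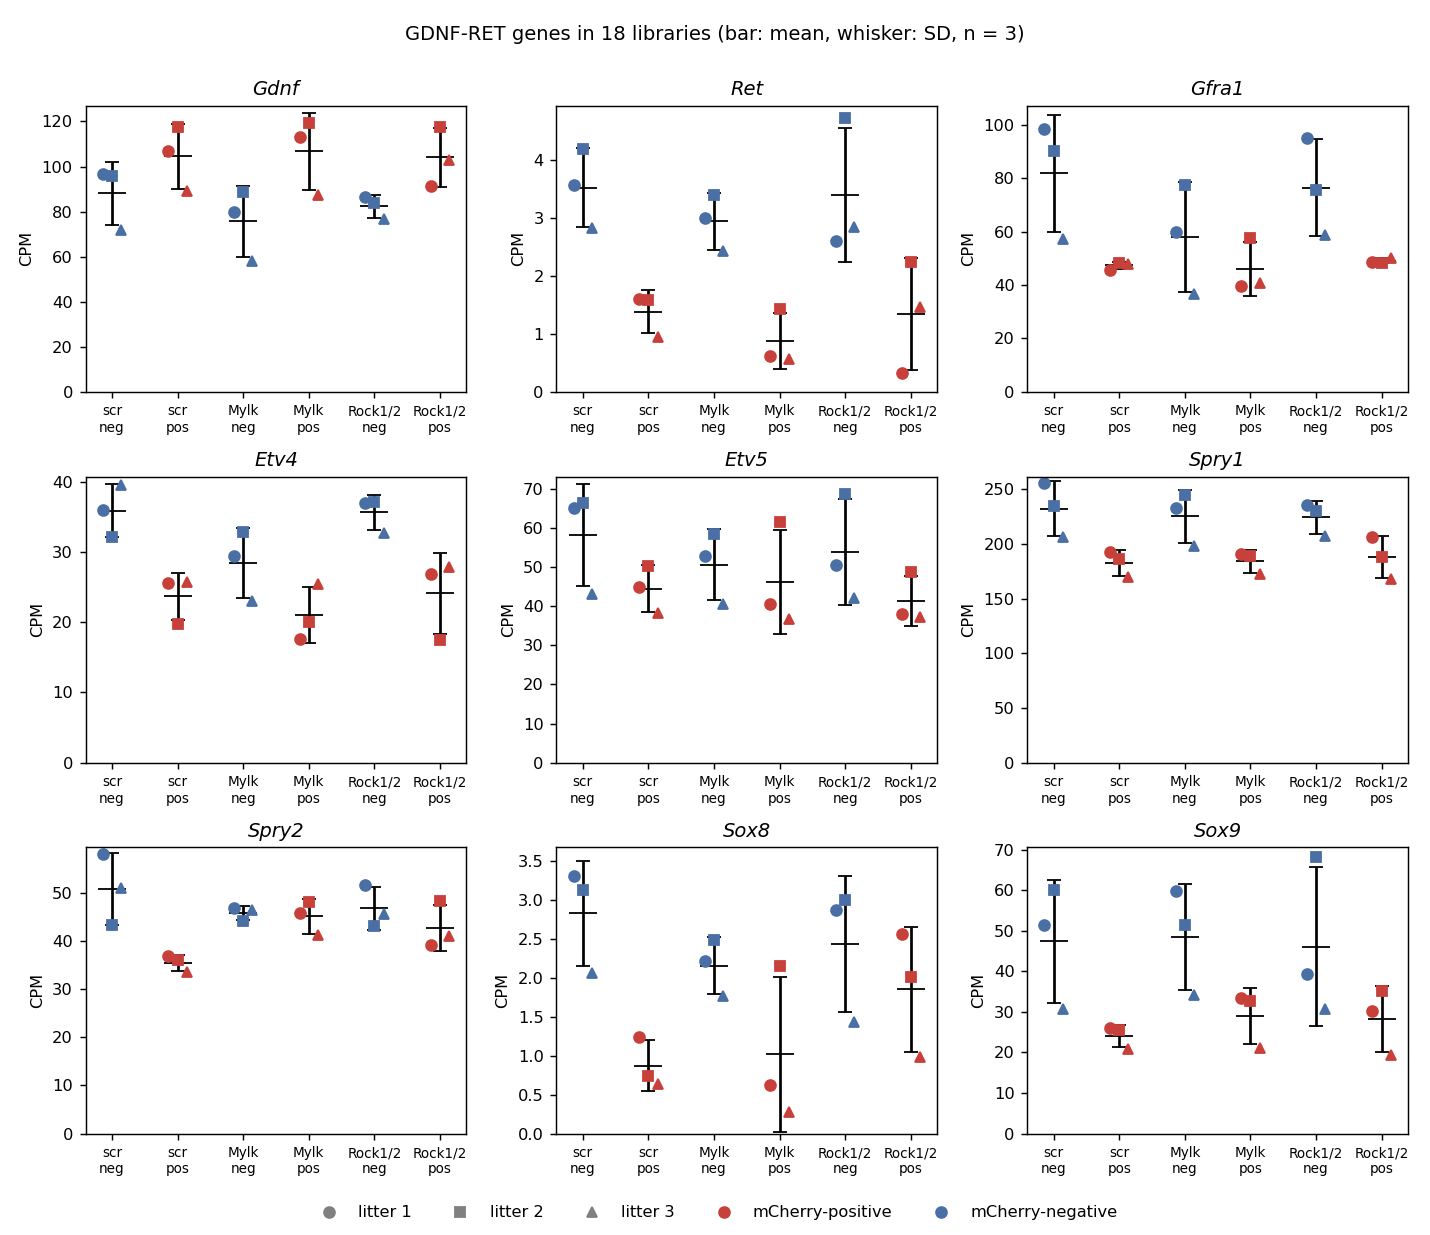
Level of each of the 9 genes in CPM (counts scaled to a common library total, linear axes from 0) in the 18 libraries, by vector (scr, scramble-shRNA) and fraction, with circles, squares and triangles for litters 1, 2 and 3, a bar for the mean and whiskers for the SD of 3 libraries. Gdnf sits higher in the positive fraction (red) of each vector and the other 8 genes sit lower on average, and Ret alone shows no overlap between the fractions.

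Gdnf (ENSMUSG00000022144), the ligand, was the gene that ran against the others. In the positive fraction, in the order of litters 1, 2 and 3, scramble-shRNA gave 107, 118 and 89.1 CPM, Mylk-shRNA 113, 119 and 87.4 CPM and Rock1/2-shRNA 91.3, 118 and 103 CPM. In the negative fraction scramble-shRNA gave 96.5, 96.0 and 72.0 CPM, Mylk-shRNA 80.0, 88.7 and 58.2 CPM and Rock1/2-shRNA 86.5, 83.7 and 76.7 CPM. The fractions overlapped when all libraries were pooled, but within each of the 9 cultures the positive cells held more. The mean was 105 ± 13.02 CPM in the positive and 82.0 ± 12.1 CPM in the negative fraction (SD, n = 9 each, sharing 3 litters). The averaged log2 fold change was 0.31 ± 0.086 (SE), or 124% of the negative fraction (95% interval 109 to 140%, adjusted p = 0.00937).

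Ret (ENSMUSG00000030110), the receptor, was scarce in every library and scarcest in the positive cells. In the negative fraction scramble-shRNA gave 3.57, 4.19 and 2.83 CPM (39, 51 and 11 counts), Mylk-shRNA 3.00, 3.40 and 2.43 CPM (34, 41 and 11 counts) and Rock1/2-shRNA 2.61, 4.72 and 2.85 CPM (30, 41 and 20 counts). In the positive fraction scramble-shRNA gave 1.60, 1.60 and 0.951 CPM (9, 13 and 3 counts), Mylk-shRNA 0.621, 1.43 and 0.564 CPM (6, 6 and 2 counts) and Rock1/2-shRNA 0.320, 2.25 and 1.47 CPM (1, 19 and 6 counts). The highest positive library lay below the lowest negative one, a separation that 2.06% of all genes tested showed in this direction and 6.65% in the other. No other of the 9 genes showed it. The averaged log2 fold change was -1.49 ± 0.24, or 35.6% of the negative fraction (95% interval 24.9 to 50.7%, adjusted p = 9.75e-05). With so few counts the ratio within a single culture is imprecise, and it ran from -0.956 to -3.03 on the log2 scale.

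Gfra1 (ENSMUSG00000025089), the co-receptor, was nearly level across the positive libraries and varied in the negative ones. In the positive fraction scramble-shRNA gave 45.7, 48.3 and 47.9 CPM, Mylk-shRNA 39.7, 57.5 and 40.6 CPM and Rock1/2-shRNA 48.7, 48.2 and 50.1 CPM. In the negative fraction scramble-shRNA gave 98.4, 90.1 and 57.1 CPM, Mylk-shRNA 59.9, 77.5 and 36.6 CPM and Rock1/2-shRNA 94.97, 75.7 and 58.7 CPM. Litter 3 was the lowest of the negative libraries with each vector, and its Mylk-shRNA library lay below all positive ones. The averaged log2 fold change was -0.66 ± 0.13, or 63.5% of the negative fraction (95% interval 52.6 to 76.7%, adjusted p = 0.000695). Without litter 3 it was -0.84 (adjusted p = 1.29e-05).

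The receptor and its co-receptor did not keep one proportion. The counts of Gfra1 divided by those of Ret in the same library, with no correction for transcript length, ran from 15.1 to 36.4 in the negative fraction (median 20.6) and from 21.5 to 152 in the positive fraction (median 40.3), and were higher in the positive cells of 9 of 9 cultures. The highest ratio, in the Rock1/2-shRNA positive library of litter 1, rests on 1 count of Ret. No test was made of this ratio, which was chosen after the levels were seen. It restates the larger fold of Ret beside that of Gfra1 and is no separate result. The same ratio was taken for Sox8 to Sox9, Etv4 to Etv5 and Spry1 to Spry2. It was higher in the positive cells of 4, 2 and 3 of 9 cultures.

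The transcription factor genes were lower in the positive cells, with lower averaged estimates for the SOX genes than for the ETS genes. No test compared the genes, and the 95% intervals of Sox9 (-1.21 to -0.50) and Etv4 (-0.84 to -0.38) overlapped. The order held with scramble-shRNA and Mylk-shRNA. With Rock1/2-shRNA Sox8 (-0.47 ± 0.44) was lowered less than Etv4 (-0.64 ± 0.19). Etv4 (ENSMUSG00000017724) ran from 17.5 to 27.9 CPM in the positive fraction (median 25.4) and from 23.0 to 39.6 CPM in the negative fraction (median 32.8), a log2 fold change of -0.61 ± 0.11 (adjusted p = 0.000259). Etv5 (ENSMUSG00000013089) ran from 36.8 to 61.5 CPM (median 40.6) and from 40.6 to 68.7 CPM (median 52.8), a log2 fold change of -0.36 ± 0.11 (adjusted p = 0.0186). The fractions overlapped for both genes, and the call of Etv5 was lost without the Rock1/2-shRNA positive library of litter 1 (adjusted p = 0.0519). Sox9 (ENSMUSG00000000567) ran from 19.3 to 35.1 CPM in the positive fraction (median 25.9) and from 30.6 to 68.1 CPM in the negative fraction (median 51.4), a log2 fold change of -0.85 ± 0.17 (adjusted p = 0.000737). Sox8 (ENSMUSG00000024176) ran from 0.282 to 2.56 CPM (median 0.979, 1 to 17 counts) and from 1.43 to 3.30 CPM (median 2.49, 8 to 38 counts), a log2 fold change of -1.17 ± 0.27 (adjusted p = 0.00271). Sox8 was as scarce as Ret in counts, and Sox9 was lowest in litter 3 in all 6 groups.

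The Sprouty genes, both inhibitors of the pathway, were lower by amounts near that of Etv5. Spry1 (ENSMUSG00000037211) ran from 168 to 207 CPM in the positive fraction (median 188) and from 198 to 256 CPM in the negative fraction (median 233), a log2 fold change of -0.35 ± 0.059 (adjusted p = 0.000121). Its culture ratios were the tightest of the 9 genes, from -0.188 to -0.411 on the log2 scale. For Spry2 (ENSMUSG00000022114) the positive fraction gave 36.7, 36.0 and 33.6 CPM under scramble-shRNA, 45.9, 48.1 and 41.1 CPM under Mylk-shRNA and 39.1, 48.2 and 40.9 CPM under Rock1/2-shRNA. The negative fraction gave 58.1, 43.3 and 50.9 CPM under scramble-shRNA, 46.8, 44.1 and 46.5 CPM under Mylk-shRNA and 51.5, 43.0 and 45.6 CPM under Rock1/2-shRNA. The 3 scramble-shRNA positive libraries were the lowest of the 18. The averaged log2 fold change of Spry2 was -0.27 ± 0.066 (adjusted p = 0.00355).

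**Figure D2:**
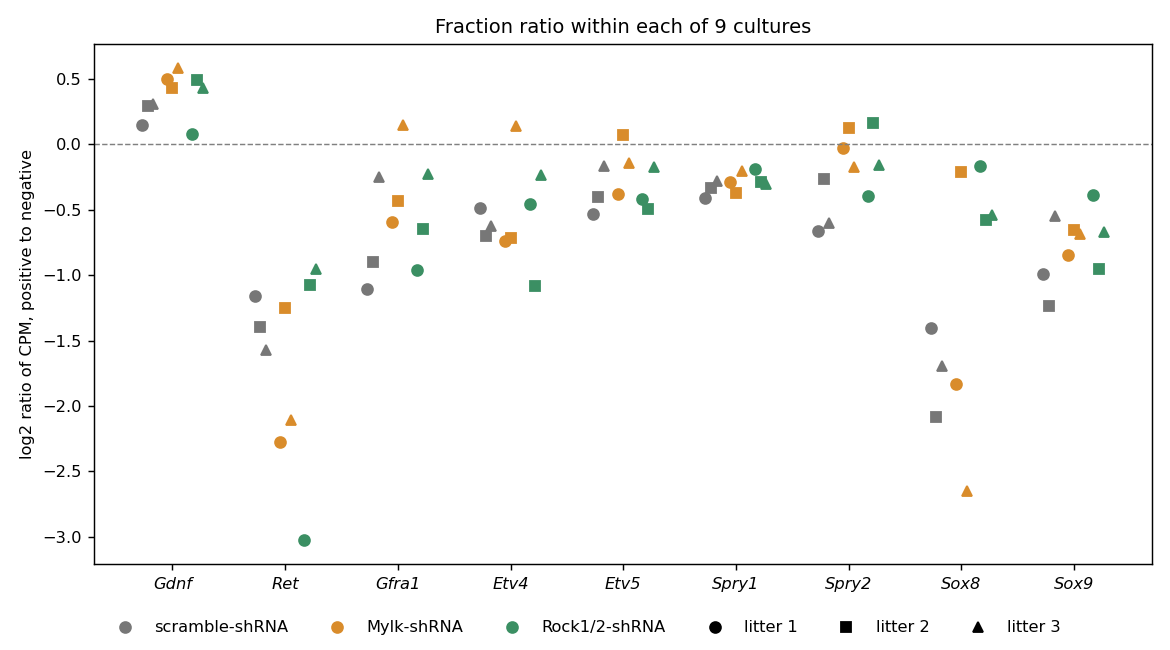
Log2 ratio of CPM, positive to negative fraction of the same culture, for each gene in the 9 cultures, with color for the vector and shape for the litter; the dashed line marks equal levels. All 9 points lie above the line for Gdnf and below it for Ret, Spry1, Sox8 and Sox9, and 1 or 2 points lie above it for the other 4 genes.

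Within the 9 cultures, where both fractions came from the same pooled kidneys, Ret, Spry1, Sox8 and Sox9 were lower in the positive cells in 9 of 9, as 7.59% of all genes tested were. Gdnf was higher in 9 of 9, as 15.2% of all genes were. Gfra1, Etv4 and Etv5 were lower in 8 of 9, and Spry2 in 7 of 9. The exceptions were the Mylk-shRNA culture of litter 3 for Gfra1 (0.148 on the log2 scale) and Etv4 (0.141), the Mylk-shRNA culture of litter 2 for Etv5 (0.071) and Spry2 (0.125), and the Rock1/2-shRNA culture of litter 2 for Spry2 (0.164). For Gfra1 the litter 3 culture had the value nearest to or above 0 with every vector: -0.253 with scramble-shRNA, 0.148 with Mylk-shRNA and -0.23 with Rock1/2-shRNA, against -0.431 to -1.11 in the other 6 cultures.

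Ranked by mean level, the 3 negative groups stood above the 3 positive groups for 8 genes, and the positive groups above the negative groups for Gdnf. Most neighbours in these orders overlapped in range. How often all genes tested show such an order, or neighbours whose ranges part, was not counted. The orders and partings given here are therefore descriptions and do not set these genes apart from others. Among the 5 neighbouring pairs of each gene, the ranges parted once for Ret, between Mylk-shRNA negative (2.95 ± 0.486 CPM, SD, n = 3) and scramble-shRNA positive (1.38 ± 0.373 CPM), and once for Spry1, between Rock1/2-shRNA negative (225 ± 15.03 CPM) and Rock1/2-shRNA positive (188 ± 19.3 CPM). They parted once for Spry2 too, between Rock1/2-shRNA positive (42.7 ± 4.80 CPM) and scramble-shRNA positive (35.4 ± 1.63 CPM), and for no pair of the other 6 genes.

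With a single vector, where 3 libraries stood against 3, fewer differences passed. With scramble-shRNA 7 of the 9 genes were lower in the positive fraction, all but Gdnf and Etv5, and 0 were higher (4.85% of all genes tested were lower and 7.43% higher). Only the call of Spry2 held in all 6 fits that left out 1 of these libraries: those of Ret, Gfra1 and Sox9 were lost in 5 of 6 (adjusted p up to 0.139, 0.0856 and 0.142) and those of Etv4, Spry1 and Sox8 in 4 of 6. The count fell to 1, 2 or 3 in 5 of the 6 fits, all but the one without the negative library of litter 3. With all libraries the log2 fold changes were -1.76 ± 0.49 for Sox8, -1.36 ± 0.41 for Ret, -1.03 ± 0.29 for Sox9, -0.84 ± 0.22 for Gfra1, -0.65 ± 0.19 for Etv4, -0.56 ± 0.12 for Spry2 and -0.39 ± 0.10 for Spry1. With Mylk-shRNA 2 genes passed, both lower (5.14% of all genes were lower and 8.07% higher), Ret (-1.93 ± 0.45, adjusted p = 0.00729) and Spry1 (-0.36 ± 0.10, adjusted p = 0.0243). The call of Ret was lost without the positive library of litter 1 (adjusted p = 0.0742), and that of Spry1 in 4 of 6 fits, without the positive library of litter 2 or 3 or the negative library of litter 1 or 2 (adjusted p up to 0.131). Without the positive library of litter 2 the called genes were Ret and Sox8. With Rock1/2-shRNA Etv4 alone passed (-0.64 ± 0.19, adjusted p = 0.0352; 4.3% of all genes were lower and 6.94% higher). Its call was lost in 5 of 6 fits, all but the one without the positive library of litter 3 (adjusted p up to 0.267). Ret was called in its place without the positive library of litter 2, and Gfra1 without the negative library of litter 3. The estimates lay on the same side of 0 with each vector for all 9 genes, so these unequal counts are no test of a difference between vectors, which is given further on.

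These counts per vector moved with the treatment of litters. With litter as a block 8 of 9 genes passed with scramble-shRNA, all lower (10.8% of all genes were lower and 12.4% higher), the added gene being Etv5 (adjusted p = 0.00242). With Mylk-shRNA 6 passed: Gdnf higher (0.43, adjusted p = 0.00421; 13.2% of all genes were higher) and Ret, Etv4, Spry1, Sox8 and Sox9 lower (11.1% of all genes were lower). With Rock1/2-shRNA 7 passed: Gdnf higher (0.30, adjusted p = 0.0473; 11.3% of all genes) and Ret, Gfra1, Etv4, Etv5, Spry1 and Sox9 lower (9.05% of all genes). All 9 averaged differences passed with the block as without it (22.2% of all genes were higher and 23.5% lower there).

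**Figure D3:**
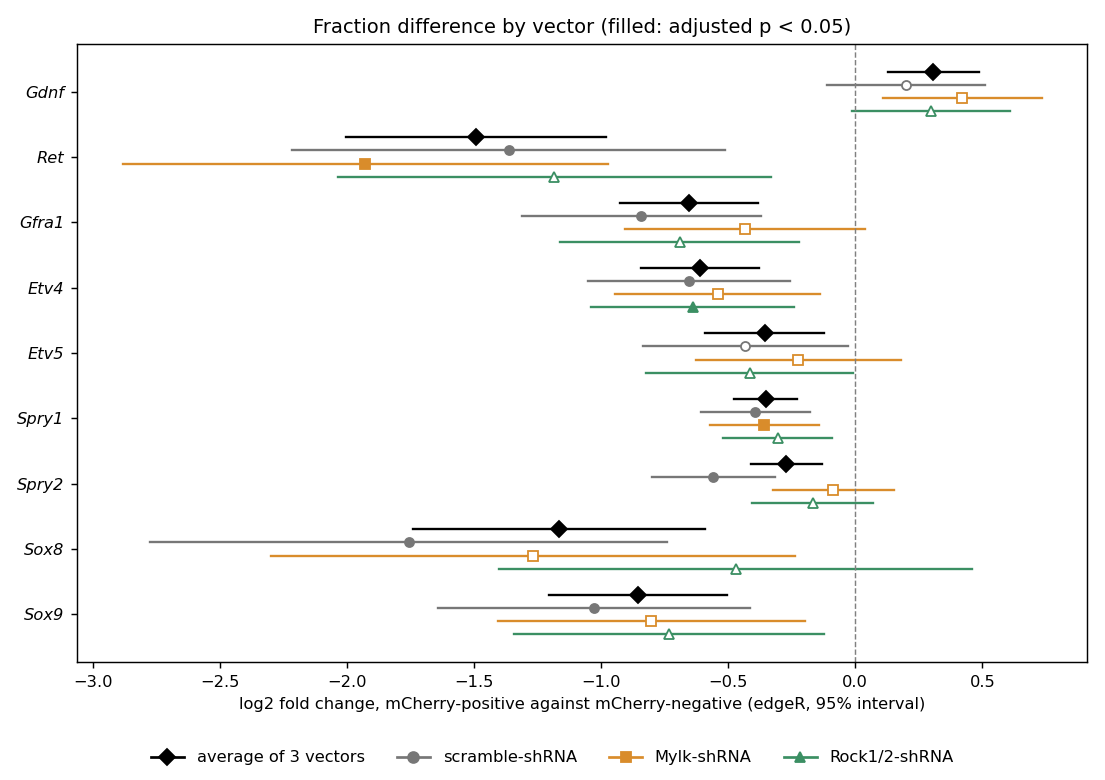
Log2 fold change of each gene, positive against negative fraction, with 95% intervals from edgeR's fit, averaged over vectors (black diamonds) and with each vector; filled symbols have an adjusted p under 0.05. Gdnf lies right of 0 and the other 8 genes left of it, with the widest intervals for Ret and Sox8, the genes with the fewest counts.

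Markers of kidney cell types also differed between the fractions. Of all genes tested, 16% were lower and 17.6% higher, and these shares stand beside each count that follows. The listed tip, trunk, podocyte, proximal tubule and neural markers include genes that fell under the filter and were not tested. All 8 nephron progenitor markers were lower in the positive fraction (summed level 488 to 659 CPM, against 515 to 1059 CPM in the negative fraction) and so were all 7 early nephron markers (180 to 237 against 403 to 733 CPM). Of the 6 ureteric tip markers, 3 were lower (Wnt11, Slco4c1 and Emx2) and Adamts18 was higher (18.6 to 29.1 against 37.8 to 71.5 CPM). Of 10 ureteric trunk markers 6 were lower (48.2 to 85.2 against 74.7 to 131 CPM). All 10 stromal markers were higher (4451 to 7536 against 2850 to 3545 CPM) and so were all 6 macrophage markers (131 to 309 against 2.47 to 7.52 CPM) and 5 of 6 smooth muscle markers (321 to 956 against 120 to 234 CPM). Endothelial markers were mixed, with 4 of 8 lower and 2 higher (134 to 246 against 191 to 333 CPM; 2 lower and 1 higher without litter 3). Of 5 cartilage markers, a tissue where Sox9 is also known, 2 were lower and 1 higher (52.9 to 75.3 against 67.9 to 115 CPM). Of 5 podocyte markers 2 were higher and 1 lower (84.96 to 113 against 60.2 to 107 CPM), and of 4 proximal tubule markers 1 was lower (33.0 to 80.6 against 29.4 to 65.6 CPM). Markers of neural crest cells, Schwann cells and neurons, where RET signaling is known too, summed to 2.24 to 5.78 CPM in the positive and 2.69 to 7.75 CPM in the negative fraction; Sox10 was at 0 in 14 of 18 libraries. These marker levels differed between the same fractions as the 9 genes, some in each direction, and their part in the differences was not tested. The levels of Gfra1 ran with those of nephron progenitor markers, so the 9 genes are called here by their pathway and not as a measure of the tip.

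Other genes of the pathway were taken from lists of known function. Among the other GDNF family ligands and co-receptors, Gfra2, the co-receptor of neurturin, was higher in the positive fraction (23.4 ± 3.70 against 13.96 ± 2.69 CPM, SD, n = 9 each; log2 fold change 0.68 ± 0.10, adjusted p = 3.41e-05). Ncam1, an adhesion molecule that can bind GDNF without RET, was lower (188 ± 31.7 against 219 ± 37.5 CPM; -0.27 ± 0.093, adjusted p = 0.0287). This call was lost in 9 of the 18 fits with 1 library left out: the scramble-shRNA positive library of litter 2 or 3 or negative library of litter 1, the Mylk-shRNA positive library of litter 1 or 3 or negative library of litter 1, and the Rock1/2-shRNA positive library of litter 3 or negative library of litter 1 or 2. The ligand genes Nrtn (0.09 ± 0.12) and Artn (-0.30 ± 0.27) and the co-receptor gene Gfra4 (0.24 ± 0.14) did not pass, and Pspn, Gfra3 and Gfral fell under the filter. Thus the co-receptors Gfra1 and Gfra2 stood on opposite sides of 0.

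Among 18 adaptors and kinases downstream of RET, 4 were higher, 2 lower and 12 not called, with a median log2 fold change of 0.06. This share called is near the 33.6% of all genes tested, and the genes are given for their roles. The adaptor genes Dok5 (0.63 ± 0.16), Gab1 (0.36 ± 0.087) and Shc1 (0.24 ± 0.075) were higher with the kinase gene Mapk3, and the number higher fell to 2 with no filter on low counts or without the scramble-shRNA negative library of litter 2. Grb7, which encodes an adaptor that binds RET, was lower (-2.11 ± 0.27, adjusted p = 1.09e-05), and so was the kinase gene Map2k1 (-0.38 ± 0.077). Of 10 tested genes of MAPK feedback and response 5 were lower and none higher (0), with a median of -0.40, where 16% of all genes were lower. They were led by Il17rd, an inhibitor of FGF signaling at the membrane (-1.12 ± 0.12), the ETS gene Etv1 (-0.86 ± 0.067) and Dusp5, a phosphatase gene for ERK (-0.85 ± 0.092). With litter as a block 8 of the 10 were lower and 1 higher, where 23.5% and 22.2% of all genes were.

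Of 11 tested genes described as targets of the pathway in the tip, 8 were lower, 2 higher and 1 not called (median -0.82; 16% of all genes were lower and 17.6% higher). Lhx1 (-2.84 ± 0.35), Emx2 (-2.15 ± 0.29) and Slco4c1 (-1.50 ± 0.27) were the lowest, and Lhx1 and Emx2 are also known in the early nephron. Adamts18 (1.35 ± 0.20) and Mmp14 (1.06 ± 0.080), both metalloprotease genes, were higher. Of 28 tested regulators of Gdnf and Ret, 16 were lower, 4 higher and 8 not called (median -0.37). The 16% of all genes lower and 17.6% higher apply here too, and the number higher is not above that share. The lowest were the transcription factor genes Pax8 (-2.06 ± 0.27) and Pax2 (-1.09 ± 0.12) and the matrix gene Npnt (-1.37 ± 0.24), and the highest were Fgf7 (1.65 ± 0.30), the stromal transcription factor gene Foxd1 (1.43 ± 0.11) and the BMP antagonist gene Grem1 (1.28 ± 0.21). Pax2, a known activator of Gdnf, thus stood lower in the fraction where Gdnf stood higher.

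The effect of the vectors was asked next, each knockdown against scramble-shRNA within a fraction. Knockdown names the design of the vector here. A loss of the targeted transcripts was itself not shown, so these are comparisons of vectors. None of the 9 genes passed in any of the 4 comparisons (0 of 9 each), where 0% of all genes tested did, by edgeR or DESeq2. At an unadjusted p under 0.05 edgeR gave 258 and 145 of all genes for Mylk-shRNA and Rock1/2-shRNA in the positive fraction and 285 and 200 in the negative fraction, and DESeq2 gave 197, 114, 245 and 186. In the positive fraction the 9 log2 fold changes ran from -0.82 to 0.33 with Mylk-shRNA (median 0.00) and from -0.11 to 1.05 with Rock1/2-shRNA (median 0.05). In the negative fraction they ran from -0.48 to 0.03 (median -0.22) and from -0.24 to -0.00 (median -0.10). The intervals differ widely in what they leave possible: for Ret with Mylk-shRNA in the positive fraction it ran from -1.91 to 0.26, and for Sox8 with Rock1/2-shRNA from -0.07 to 2.17. Both knockdowns were set against the same scramble-shRNA libraries. Summed Y-linked transcripts ran from 76.7 to 105 CPM with scramble-shRNA, from 73.9 to 157 CPM with Mylk-shRNA and from 22.6 to 179 CPM with Rock1/2-shRNA, and the part of the embryos' sex in these comparisons was not tested.

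**Figure D4:**
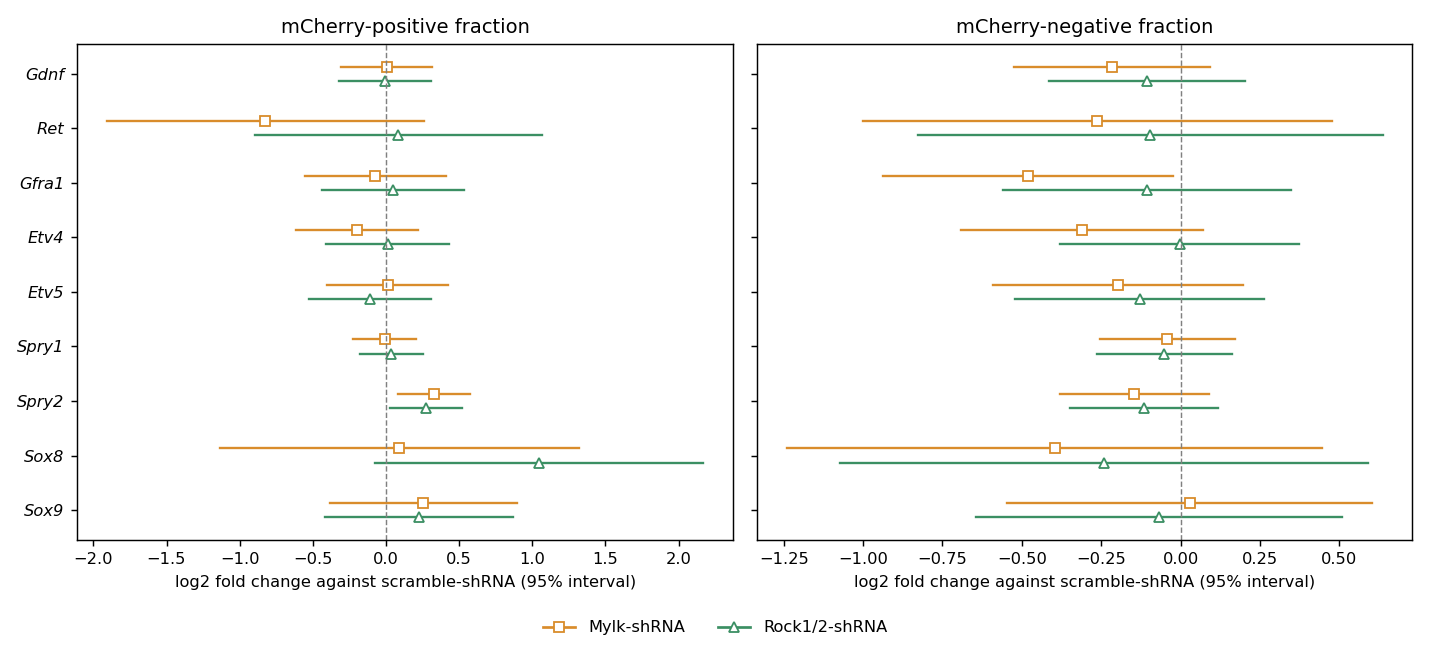
Log2 fold change of each gene against scramble-shRNA in the positive (left) and negative (right) fraction, with 95% intervals from edgeR's fit; open symbols did not pass the test, and the panels have separate axes. The intervals of Spry2 in the positive fraction lie right of 0 before adjustment, and those of Ret and Sox8 are the widest.

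Spry2 was the gene nearest to a vector effect. Its mean in the positive fraction was 35.4 ± 1.63 CPM under scramble-shRNA, 45.0 ± 3.56 CPM under Mylk-shRNA and 42.7 ± 4.80 CPM under Rock1/2-shRNA (SD, n = 3 each). The libraries of each knockdown lay above those of scramble-shRNA without overlap, as those of 3.31% and 2.42% of all genes tested did. The log2 fold changes were 0.33 ± 0.12 (95% interval 0.08 to 0.57) and 0.27 ± 0.12 (0.03 to 0.52), with adjusted p = 1.00 for both by edgeR. The difference between fractions was smaller than with scramble-shRNA by 0.47 ± 0.16 on the log2 scale with Mylk-shRNA (95% interval 0.13 to 0.81) and by 0.39 ± 0.16 with Rock1/2-shRNA (0.05 to 0.73), again with adjusted p = 1.00. Gfra1 was the other gene with an unadjusted p under 0.05, in the negative fraction with Mylk-shRNA (58.0 ± 20.5 against 81.8 ± 21.8 CPM; -0.48 ± 0.22, adjusted p = 1.00), and it was -0.26 without the Mylk-shRNA negative library of litter 3. No fraction difference of the 9 genes passed the test of a change with the vector (0 of 9 with either knockdown, 0% of all genes; 217 and 145 genes at an unadjusted p under 0.05 by edgeR, 185 and 119 by DESeq2, which also called 0). The medians of these changes over the 9 genes were 0.22 and 0.15.

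The genes whose levels ran most like those of each member were found by Pearson's r of log2 CPM over the 18 libraries, which share litters, cultures and the difference between fractions. Gfra1 ran closest to Six2, a transcription factor gene of nephron progenitors (r = 0.97, and 0.95 for deviations from the group means), then to Ankrd6 (0.96) and Meox1, another progenitor marker (0.96). Ret ran closest to Plet1 (0.93), Dusp5 (0.92) and the claudin gene Cldn3 (0.92). Gdnf ran closest to Mest, an imprinted gene (0.91), Mapre2 (0.90) and Ext2, a gene of heparan sulfate synthesis (0.89). The ligand, the receptor and the co-receptor had no gene in common among their nearest 3. Lists of 3 genes can share none even for members that run together. Over the 9 negative libraries Gdnf and Gfra1 had r = 0.95 (0.85 without the 2 farthest from the median of Gfra1). It was 0.12 over the 9 positive libraries and -0.07 over all 18. Gdnf and Ret had 0.59 in the negative and 0.69 in the positive fraction (0.75 and 0.33 without the 2 farthest). Ret and Gfra1 had 0.51 and 0.44 (0.25 and 0.01). Etv4 ran closest to Ppp1r1a (0.93), Rspo1 (0.92) and Snap91 (0.89), and Etv5 to the ETS gene Ets2 (0.94), Bahcc1 (0.93) and G3bp1 (0.93). Spry1 ran closest to the glycolytic gene Eno1, the oxygen sensor gene Egln1 and Stc2 (0.97 each), and Spry2 to Nav3 and Atp11b at the lowest values of all (0.81 each). Sox8 ran closest to Phactr1, Cxxc4 (0.90 each) and Fndc3c1 (0.89), and Sox9 to Kdm2b (0.95), Epha4 and Pam (0.94 each).

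Levels were also compared within a fraction, where the difference between fractions plays no part. Against Six2, Gfra1 had r = 0.98 over the 9 negative libraries (0.93 without the 2 libraries farthest from the median of Six2) and 0.64 over the 9 positive ones, where it was -0.41 without the 2 farthest and so rests on those libraries. Gdnf had r = 0.97 against Six2 in the negative fraction (0.89 without the 2 farthest) and 0.04 in the positive fraction (-0.06 without the 2 farthest). Against the stromal gene Foxd1 it had 0.44 in the negative and 0.68 in the positive fraction (0.38 and 0.81 without the 2 farthest). In the negative fraction Six2 was itself lowest in litter 3, down to 165 CPM in the Mylk-shRNA library, where Gdnf and Gfra1 were lowest too. Ret against Wnt11, a ligand gene of the tip, had r = 0.20 in the positive and 0.34 in the negative fraction (-0.37 and 0.29 without the 2 farthest). Against the early nephron markers its values were higher. With Pax8 Ret had 0.54 in the positive and 0.60 in the negative fraction (0.25 and 0.36 without the 2 farthest). With Lhx1 it had 0.46 and 0.60 (0.46 and 0.49). Gdnf against Pax8 had 0.29 in the positive and 0.83 in the negative fraction (0.24 and 0.37). The genes set against the members here were chosen after levels were seen, and the values are descriptions over libraries that share litters.

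**Figure D5:**
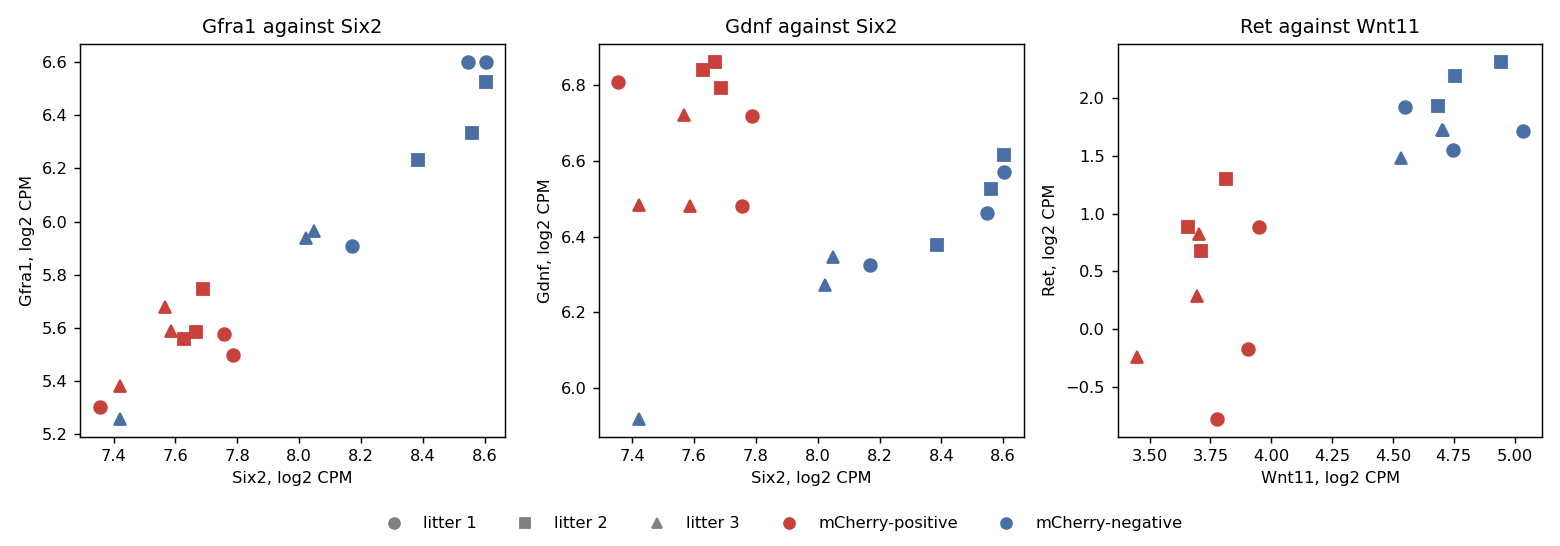
Levels in log2 CPM of Gfra1 and Gdnf against Six2 and of Ret against Wnt11 in the 18 libraries, colored by fraction and shaped by litter. Gfra1 and Six2 fall along 1 line over both fractions, Gdnf and Six2 do so in the negative fraction alone, and Ret and Wnt11 part by fraction with little relation within it.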

How the data were processed

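Poly(A) RNA of sorted cells was reverse transcribed and tagmented, per the labels' protocols. The authors deposited estimated counts and CPM for each gene and library in 1 table. In a library 22.1 to 27.4% of nonzero counts were fractions. No source used here gives the strand setting, the annotation or how reads of overlapping or repeated genes were shared. Per the submitters' processing notes, reads were handled with tools that included fastp 0.24.0, STAR 2.7.11 and featureCounts (Subread 2.1.1) on build GRCm39. The deposited CPM equal the authors' counts over the library's sum, as checked.

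Here, counts were rounded, 92 ERCC rows were dropped, and genes with low counts were removed by edgeR's filterByExpr (minimum count 10, minimum total 15). After TMM scaling, 1 edgeR quasi-likelihood fit covered the 18 libraries and 6 group means (R 4.3.3, edgeR 4.0.16). Adjustment was by Benjamini-Hochberg across 16544 genes in each of 10 comparisons. Each adjusted p is from edgeR unless DESeq2 1.42.0 is named, and values after ± are SEs of log2 fold changes unless an SD is named. Likeness used log2 CPM (prior count 2) among genes with a symbol and at least 5 CPM on average, leaving out predicted genes; of the 3 highest, most are named, since some single-gene results are not reported here. Up to 3 called pathway genes per list are named at each end, and every GDNF family gene. The test was also tried on counts simulated without a litter or culture effect. Such counts cannot show how it behaves where libraries share litters.

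Members and lists were chosen with earlier results of these data known. Per the labels, a replicate number marks a litter. Deviations from group means correlated with r = 0.237 to 0.639 over 45 pairs of libraries sharing a litter and -0.544 to 0.310 over 90 other pairs, so litter was also fitted as a block. Libraries of a group differed beyond counting noise in all 18 pairs (chi-square per gene 3.87 to 48.5).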

Additional observations from a re-analysis of the deposited data

How the results depend on the processing

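All 9 averaged fraction differences kept their direction and their call under DESeq2's test, its size factors, no filter on low counts, litter or culture as a block and without litter 3. The exception with 1 library left out was Etv5, as given in the report. The number of the 9 genes called with a single vector was less stable. With scramble-shRNA it ran from 1 to 6 of 9 with 1 library left out (7 with all), and was 1 without the positive library of litter 2 or the negative library of litter 1, 2 without the positive library of litter 3 or the negative library of litter 2, and 3 without the positive library of litter 1. With Mylk-shRNA (2 with all) it ran from 1 to 5 with 1 library left out, where the negative library of litter 3 gave 5 and the positive or the negative library of litter 1 gave 1; it was 1 with no filter, 6 with litter as a replicate block, 6 with culture as a block and 5 without litter 3. With Rock1/2-shRNA (1 with all) it ran from 0 to 1 with 1 library left out, and was 0 without the positive or the negative library of litter 1 or the negative library of litter 2; it was 3 with DESeq2's test, 2 with no filter, 7 with litter as a replicate block, 2 with the compared groups only, 3 without litter 3 and 7 with culture as a block. The cause of these shifts was not tested. The vector comparisons and the changes of the fraction difference called 0 of the 9 genes under each alternative run. Counts of 1 to 51 for Ret and 1 to 38 for Sox8 limit what their folds can show.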
